A study of Mus musculus with 2 samples.

Results

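The microRNAs of the miR-130 and miR-301 family share the seed AGUGCAA, and 3 of their genes, Mir130a, Mir130b and Mir301b, were taken by name from the 1973 microRNA genes counted in the liver of mouse embryos. Mir130a stands alone on chromosome 2, whereas Mir130b and Mir301b lie side by side on chromosome 16. The question was how far apart the lone gene and the 2 clustered genes stand in level and whether they keep their proportions from one liver to the other. MicroRNA sequencing was done on whole livers of strain B6NCrl at embryonic day 14.5, with no treatment or mutation, as 1 group of 2 libraries called replicate 1 and replicate 2. The labels call each a single liver, with its own collection day, but also give pooled male and female sex and 1 shared donor ID, so it is uncertain how far the replicates are separate animals, and every p-value below compares these 2 libraries only. In whole tissue, fewer cells of a type and less RNA per cell cannot be told apart.

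A microRNA is cut from a hairpin-shaped precursor, and usually a single arm is loaded into a silencing complex. Pairing between its seed, bases 2 to 8 from the 5′ end, and a messenger RNA leads to repression of that messenger. Genes with the same seed can therefore address the same messengers. Members of this family are known to repress Pparg in mouse fat cell precursors. In human cells miR-130a is known to repress HOXA5 in vessel-lining cells. The liver of this stage holds immature liver cells, vessels and a large population of developing blood cells.

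All 3 members had a hairpin in the RefSeq sequence table (build GRCm38.p6, the assembly also called mm10). The 3′ arms are shown first because they carry the shared seed, which stands in capitals. The sequence table lists no mature 3′ arm of Mir301b, so its seed is shown only in the hairpin below. The last line is that of Mir301, the gene of miR-301a, which is not one of the 3 members but has the same seed.
miR-130a-3p: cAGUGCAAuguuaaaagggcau
miR-130b-3p: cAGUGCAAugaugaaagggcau
miR-301a-3p: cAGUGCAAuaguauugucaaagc

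The 5′ arms do not carry this seed. Their own bases 2 to 8 are in capitals, and differ between miR-130a-5p and miR-130b-5p, whereas miR-301b-5p and miR-301a-5p have the same ones.
miR-130a-5p: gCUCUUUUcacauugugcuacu
miR-130b-5p: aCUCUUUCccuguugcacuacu
miR-301b-5p: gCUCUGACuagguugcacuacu
miR-301a-5p: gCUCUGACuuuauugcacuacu

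The 3 hairpins show where the seed, in capitals, lies in each precursor.
Mir130a: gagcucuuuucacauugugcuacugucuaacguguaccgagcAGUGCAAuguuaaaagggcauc
Mir130b: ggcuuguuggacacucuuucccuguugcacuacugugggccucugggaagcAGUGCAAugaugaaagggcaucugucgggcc
Mir301b: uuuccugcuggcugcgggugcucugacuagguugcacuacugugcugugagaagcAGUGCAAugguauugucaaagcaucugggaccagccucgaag

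Counted from the 5′ end, miR-130a-3p and miR-130b-3p were identical at 20 of 22 bases and differed by U11A and A13G, both outside the seed. The arms miR-301a-5p and miR-301b-5p were identical at 19 of 22 bases and differed by U10A, U11G and A12G. Of 1738 mature sequences in the table, 7 (0.403%) held AGUGCAA at bases 2 to 8. These were of Mir130a, Mir130b, Mir301, Mir130c, Mir721, Mir6341 and Mir6389, and Mir301b was placed with them by its hairpin. The 9 bases cAGUGCAAu, the seed with 1 base on either side, were found in 8 of 1005 hairpins (0.796%), all 3 members among them. In spite of this likeness no member shared 18 or more bases in a row with any of the 1004 other hairpins. The longest shared stretch was 17 bases for Mir130a, with Mir6389, 16 bases for Mir130b, with Mir6368, and 16 bases for Mir301b, with Mir301. Reads with several mapping positions were left out of the counts at genes. How reads with mismatches were placed is not given in the sources used here, so a small exchange of reads between the members and Mir301 was not tested.

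Mir130a (ENSMUSG00000065484) spans 64 bases of the minus strand of chromosome 2, chr2:84741115-84741178, and overlaps no gene of another kind in the GENCODE M21 annotation. Its nearest such neighbours are Gm19426, 990 bases away on the same strand, and Ypel4, 2459 bases away on the other strand. Mir130b (ENSMUSG00000065572, 82 bases, chr16:17124061-17124142) and Mir301b (ENSMUSG00000076288, 97 bases, chr16:17124400-17124496) both lie on the minus strand of chromosome 16 in an intron of 2610318N02Rik, a gene of the same strand, with 257 bases between them. On this strand Mir301b comes first in the direction of transcription. No other microRNA gene of the table lay within 10 kb of any member. Mir301 lies in an intron of Ska2 on chromosome 11.

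Mir130a was the most abundant member in both livers, Mir130b came next and Mir301b was far lower. Levels are in CPM, reads scaled to a common depth by the sense-strand reads of all microRNA genes, which numbered 2353946 for replicate 1 and 3132763 for replicate 2. Mir130a had 17488 CPM (replicate 1) and 18128 CPM (replicate 2), from 41167 and 56791 reads, and ranked 17th of 1973 genes in both. Mir130b followed with 4464 CPM (replicate 1) and 4596 CPM (replicate 2), from 10507 and 14399 reads, and ranked 51st and 49th. For Mir301b there were 53.1 CPM in replicate 1 and 60.0 CPM in replicate 2, from 125 and 188 reads, and ranks of 214 and 207. The ranges of the 3 genes did not overlap, and each gap was far wider than the distance between the replicates of any one of them.

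The averages over the 2 livers were 17808 ± 452.3 CPM for Mir130a, 4530 ± 93.8 CPM for Mir130b and 56.6 ± 4.89 CPM for Mir301b (SD, n = 2 each). Relative to all reads of a library, unmapped and multiply mapped ones included, the averages were 6738, 1714 and 21.4 CPM. All 3 passed the minimum of 10 counts in each library that was set for testing, as did 332 genes in all, whose median level was 172.6 CPM. Mir130a and Mir130b thus stood above that median and Mir301b below it. The counting error was smallest for the best-covered gene: the Poisson coefficient of variation of a single count was 0.493% in replicate 1 and 0.420% in replicate 2 for Mir130a. It was 0.976% and 0.833% for Mir130b, and 8.94% and 7.29% for Mir301b. Intervals and errors of this kind cover counting only and hold no variation between livers or library preparations. Because PCR can copy 1 molecule into several reads, they can be too narrow even for counting.

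**Figure D1:**
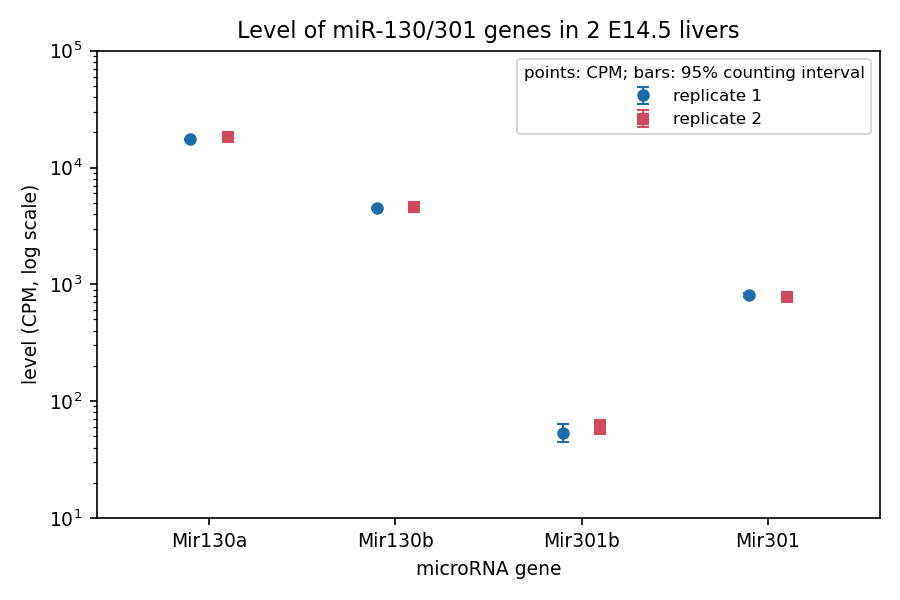
Level in CPM (log scale) of the 3 members and of Mir301 in replicate 1 (circles) and replicate 2 (squares), with 95% exact counting intervals as bars. The 2 libraries almost coincide for each gene, while the genes range from 53.1 CPM for Mir301b to 18128 CPM for Mir130a.

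The gap between the lone gene and the clustered pair had nearly the same size in both livers. Mir130a had 3.87 times the summed reads of Mir130b and Mir301b in replicate 1 (95% exact interval 3.79 to 3.96) and 3.89 times in replicate 2 (3.82 to 3.97). Against Mir130b alone the ratio of reads was 3.92 in replicate 1 (3.83 to 4.003) and 3.94 in replicate 2 (3.87 to 4.02). On the log2 scale this gap was 1.97 ± 0.0068 (SD, n = 2). Against Mir301b the ratio was 329.3 in replicate 1 (276.3 to 395.8) and 302.1 in replicate 2 (261.8 to 350.5). With counts divided by the annotated gene length, which differs between these genes, Mir130a stood 5.02-fold and 5.05-fold above Mir130b and 499.2-fold and 457.8-fold above Mir301b in replicates 1 and 2. In each of these comparisons the higher gene is also the shorter one. Division by length could therefore only widen the gaps and is no test of the order. Different hairpins can be ligated and amplified with unequal efficiency, so these are ratios of reads, and how far they follow the ratio of molecules was not tested.

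Within the cluster Mir130b had 84.1 times the reads of Mir301b in replicate 1 (70.5 to 101.1) and 76.6 times in replicate 2 (66.3 to 88.9), a mean log2 gap of 6.33 ± 0.095 (SD, n = 2). The ratio per gene length was 99.4 in replicate 1 and 90.6 in replicate 2. The gap inside the cluster was therefore wider than the gap between its higher gene and the gene on the other chromosome. The counts cannot be split by arm, since each read was counted at a gene.

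Neighbouring microRNA genes are often made from 1 primary transcript, and the cluster was set beside all next-neighbour pairs on one strand within 10 kb in which both genes had 10 or more counts in each library. There were 96 such pairs, with a median log2 gap of 2.92, or 7.55-fold, and a middle range from 1.29 to 4.80. The gap of Mir130b over Mir301b was rank 11, and 88.5% of pairs had a smaller one. A gene that shares 20 bases with another annotated hairpin was held by 39 of all 96 pairs, and by 6 of the 10 with a wider gap. Among these 6 were Mir20a over Mir19b-1 and Mir30e over Mir30c-1. The other 4 were Mir341 over Mir1188, Mir323 over Mir1197, Mir20a over Mir19a and Mir18 over Mir19a. In a comparison added after the data were seen, limited to the 57 pairs without such sharing, the gap of Mir130b over Mir301b had rank 5 and the median gap was 6.11-fold. This position is a description of read counts and carries no test.

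**Figure D2:**
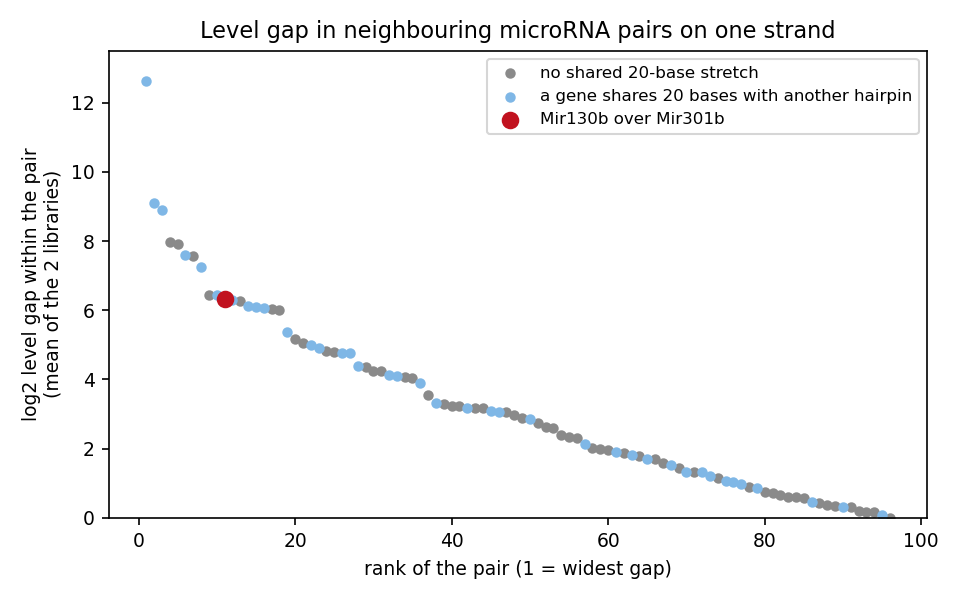
Log2 gap in level within each of 96 neighbouring microRNA pairs (mean of the 2 libraries), in order of size, with pairs holding a gene that shares 20 bases with another hairpin in light blue and the others in grey. Mir130b over Mir301b (red) stands at 6.33, where the median pair is at 2.92.

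Between the 2 livers the members were close to equal, each slightly lower in replicate 1. The ratio of replicate 1 over replicate 2 was 0.965 for Mir130a (95% exact interval 0.953 to 0.977), 0.971 for Mir130b (0.947 to 0.996) and 0.885 for Mir301b (0.700 to 1.12). As log2 ratios these were -0.05, -0.04 and -0.17. By a two-sided exact binomial test with Benjamini-Hochberg adjustment over all 332 genes, Mir130a passed the threshold of 0.05 (adjusted p = 1.6e-07), Mir130b missed it (adjusted p = 0.053) and so did Mir301b (adjusted p = 0.46). So 1 of the 3 members was called, lower in replicate 1, where 41.9% of all genes tested were called in either direction and 23.5% were lower in replicate 1. A share of 1 in 3 is near this background and is no result about the members.

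The call of Mir130a depended on the scaling. By TMM scaling its log2 ratio was -0.021 (adjusted p = 0.059 by the exact binomial test) and by DESeq2 size factors -0.018 (adjusted p = 0.12). These scalings moved all log2 ratios up by 0.031 and 0.034. The direction stayed the same for each member in all 9 alternatives. Those that only set another minimum count leave the log2 ratio unchanged, so the direction could not change in them. With these scalings 38.6% and 38.3% of all genes tested were called. Among the 51 genes that reached 10000 counts in both libraries, Mir130a and Mir130b included, 84.3% were called. The median absolute log2 ratio of those 51 genes was 0.079, and 14 of them had a smaller one than Mir130a. Over all 332 genes the median was 0.16, and 17.2% of genes lay closer to equality than Mir130a, 14.8% closer than Mir130b and 52.4% closer than Mir301b. For Mir301b the interval allows anything from a level 0.700 times that of replicate 2 to one 1.12 times as high, so a small difference was not detectable at this depth.

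**Figure D3:**
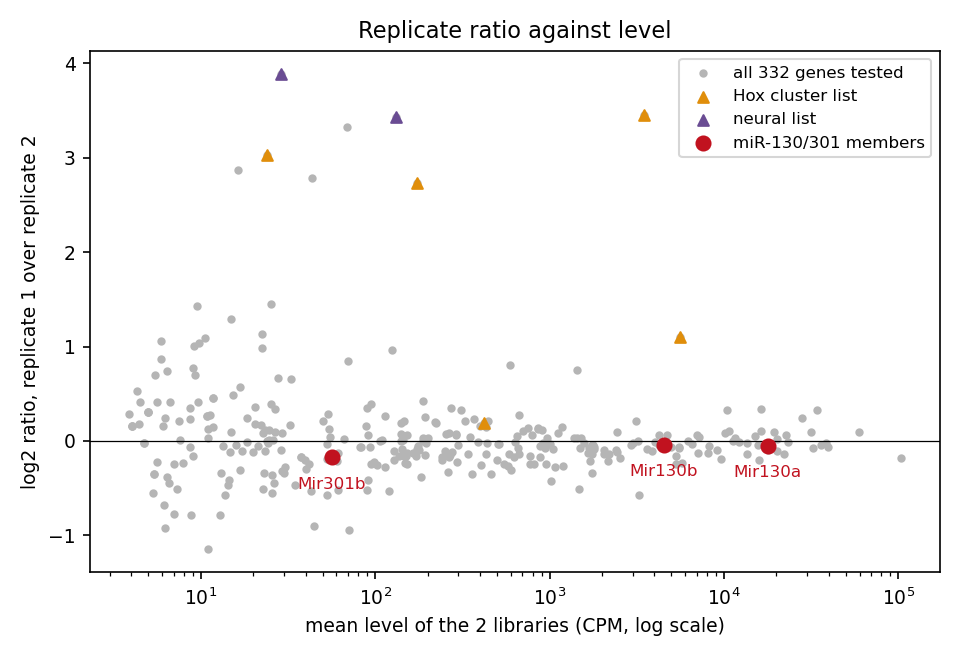
Log2 ratio of replicate 1 over replicate 2 against mean level in CPM (log scale) for the 332 genes tested. The 3 members (red circles) lie between -0.17 and -0.04, whereas the Hox cluster list (orange triangles) reaches 3.45 and the neural list (purple triangles) reaches 3.88.

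Whether the members shifted together was tested on pairs of genes by Fisher's exact test, which needs no library scaling. The log2 replicate ratio of Mir130a minus that of Mir130b was -0.0096 (95% exact interval -0.050 to 0.031). Mir130a minus Mir301b came to 0.12 (-0.21 to 0.46) and Mir130b minus Mir301b to 0.13 (-0.20 to 0.47). None of these 3 differences passed, with an adjusted p of 0.65 for each by two-sided Fisher's exact test over the 3 pairs and unadjusted values of 0.65, 0.49 and 0.45. The interval for the 2 abundant genes, on different chromosomes, reaches at most 0.050 from 0 on the log2 scale, counting error alone considered. The intervals for Mir301b are several times wider, and their width shows how little 125 and 188 reads can tell. In the 96 neighbouring pairs the median absolute difference of log2 replicate ratios was 0.13, and 51.0% of pairs had a smaller one than the 0.13 of Mir130b and Mir301b.

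Mir130a supplied most of the reads of the 3 members and Mir301b very few. The 3 together took 2.20% of the counts at microRNA genes in replicate 1 and 2.28% in replicate 2. The share of Mir130a among them was 79.5% in replicate 1, with a Clopper-Pearson interval of 79.1 to 79.8, and 79.6% in replicate 2, with 79.3 to 79.9. Mir130b held 20.3% (19.9 to 20.6) and 20.2% (19.9 to 20.5). The share of Mir301b was 0.241% (0.201 to 0.287) in replicate 1 and 0.263% (0.227 to 0.304) in replicate 2. For each gene the intervals of the 2 replicates overlapped.

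The other counted genes with the seed AGUGCAA added little. Mir301 had 809.7 CPM (replicate 1) and 776.95 CPM (replicate 2), which placed it between Mir130b and Mir301b in both livers. Its ratio of replicate 1 over replicate 2 was 1.04 (0.981 to 1.11) and it did not pass the exact binomial test (adjusted p = 0.30). Mir301 had 15.2 times the reads of Mir301b in replicate 1 (12.7 to 18.4) and 12.9 times in replicate 2 (11.2 to 15.1). Mir130c, Mir6341 and Mir6389 had 0 counts in both libraries, a result compatible with up to 3 counts, which is 1.27 CPM for replicate 1 and 0.958 CPM for replicate 2. Mir721 was not found by its symbol among the genes counted, so its reads are unknown. Of the reads at the counted genes with this seed, the 3 members held 96.5% in replicate 1 and 96.7% in replicate 2.

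A second group of microRNAs carries 6 bases of the seed, AGUGCA, shifted by 1 base. They are shown because the capitals, which mark these 6 bases, begin 1 base later than in the members.
miR-148a-3p: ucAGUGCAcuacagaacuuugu
miR-148b-3p: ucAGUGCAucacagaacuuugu
miR-152-3p: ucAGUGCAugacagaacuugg

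Mir148a, known for its high level in adult liver cells, had 1738 CPM (replicate 1) and 1793 CPM (replicate 2). Its relatives were lower, Mir148b with 634.3 and 639.4 CPM and Mir152 with 144.9 and 143.6 CPM in replicates 1 and 2. Mir350, whose 5′ arm holds the same 6 bases, had 294.4 and 302.9 CPM. Mir291b, a microRNA of embryonic stem cells, had 2 and 16 counts and was below the minimum for testing. In both livers the levels of these 4 tested genes lay below those of Mir130a and Mir130b and above that of Mir301b. None of the 4 passed the exact binomial test, with adjusted p-values from 0.23 for Mir148a to 0.96 for Mir152. At an unadjusted p under 0.05 there were 0 of the 4, against 160 of all 332 genes, and likewise 0 passed the adjusted test by TMM or DESeq2 scaling, against 38.6% and 38.3% of all genes. Per gene length the order of levels, with Mir130b above each of the 4 and Mir301b below, was the same.

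The genes nearest in level were found by the Euclidean distance of log2(CPM + 1) over the 2 libraries. Nearest to Mir130a were Mir20a, with 17310 CPM in replicate 1 and 18569 CPM in replicate 2, then Mir322, Mir143, Mir379 and Mir22, at distances from 0.038 to 0.25. Mir130b was closest to Mirlet7d (4505 and 4598 CPM) and Mir192 (4467 and 4642 CPM), followed by Mir140, Mir151 and Mir1193, at 0.013 to 0.14. For Mir301b they were Mir141 (49.7 and 56.8 CPM), Mir669c, Mir190a, Mir34a and Mir758, at 0.12 to 0.16. With 2 libraries of 1 tissue, nearness in level says only that the values are alike.

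The hepatocyte, erythroid and endothelial markers were abundant. The sums of the neural, Hox cluster and muscle lists differed between the libraries far more than the members did. The hepatocyte markers Mir122, Mir192 and Mir194-2 summed to 103914 CPM in replicate 1 and 117327 CPM in replicate 2, a ratio of 0.886. The erythroid markers Mir451a, Mir144 and Mir486 summed to 50018 and 40031 CPM, a ratio of 1.25. Mir451a and Mir144 carried this sum, whereas Mir486 was lower in replicate 1, with 404.9 and 515.5 CPM, a ratio of 0.785. The endothelial marker Mir126a had 61517 and 57654 CPM, a ratio of 1.07. Among the 7 neural genes with a row, 3 were at 0 in both libraries (Mir124a-2, Mir124a-3 and Mir9-2), yet the list's sum was 312.2 CPM in replicate 1 and 26.8 CPM in replicate 2, an 11.6-fold ratio. Mir137 made up most of the neural sum, with 242.1 CPM in replicate 1 and 22.3 CPM in replicate 2. Mir219a-2 had a ratio of 15.4, Mir9-3 had 38 and 2 counts and Mir124a-1 had 0 and 1 counts. The 6 Hox cluster microRNAs, which mark position along the body, summed to 14746 and 4577 CPM, or 3.22-fold. Mir10a and Mir10b carried this sum. The lower Mir196a-2 and Mir615 had ratios of 8.40 and 6.68, whereas Mir196b had a ratio of only 1.14 and Mir196a-1 had 0 and 1 counts. Among the 5 muscle genes with a row, 3 were at 0 in both (Mir1a-1, Mir133a-1 and Mir133a-2), and the sum was 32.3 and 14.7 CPM, or 2.20-fold. Nearly all of the muscle sum came from Mir206, with 31.0 CPM in replicate 1 and 14.0 CPM in replicate 2.

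The remaining lists had ratios closer to 1 than the neural, Hox cluster and muscle lists. The myeloid marker Mir223 had a ratio of 1.06. The lymphoid pair Mir150 and Mir155 was low, with a sum of 103.7 CPM in replicate 1 and 129.9 CPM in replicate 2, a ratio of 0.798. The sum of the mesenchymal markers Mir143, Mir145a and Mir214 had a ratio of 1.05, which came from Mir143 (1.08). Mir145a had a ratio of 0.928 and Mir214 one of 0.743, and the median log2 ratio of these 3 genes was -0.11, opposite in sign to that of the sum. The members' ratios were 0.965 for Mir130a, 0.971 for Mir130b and 0.885 for the sparsely counted Mir301b (0.700 to 1.12). Beside them the hepatocyte list had 0.886 and the erythroid list 1.25. Within the hepatocyte list the ratios were 0.882 for Mir122, which made up most of its sum, 0.962 for Mir192 and 0.907 for Mir194-2. What part the makeup of the 2 samples had in the members' levels was not tested.

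**Figure D4:**
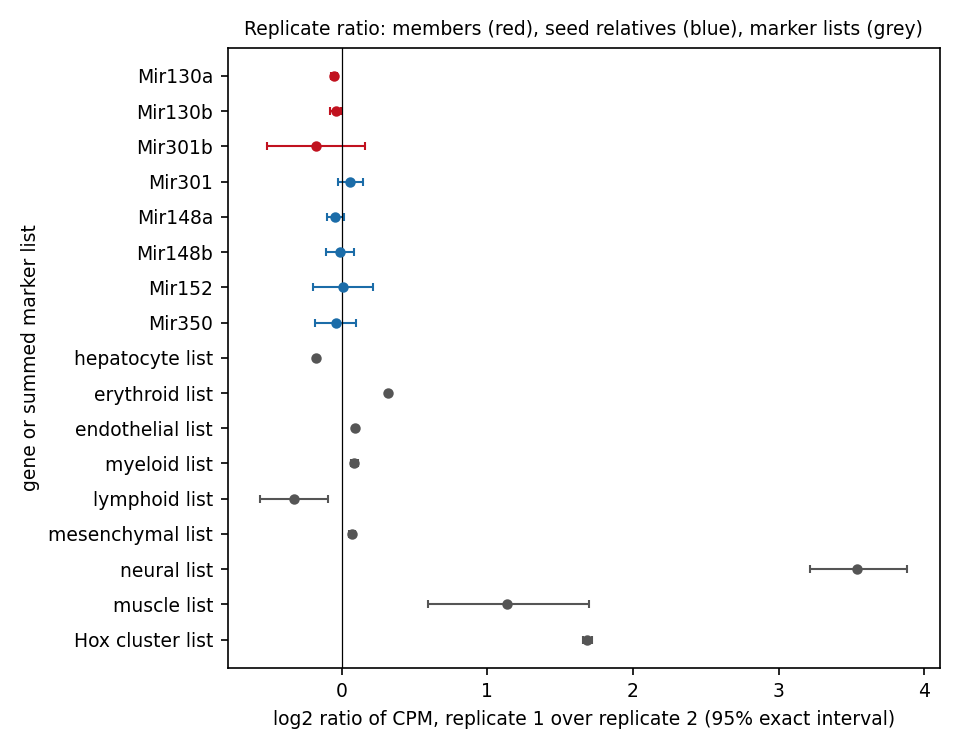
Log2 ratio of CPM of replicate 1 over replicate 2 with 95% exact intervals for the 3 members (red), microRNAs with the same or the shifted seed (blue) and summed marker lists (grey). The members lie next to 0, with the widest member interval for Mir301b, while the neural, Hox cluster and muscle sums lie well to the right, at ratios of 11.6, 3.22 and 2.20.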

How the data were processed

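The authors deposited raw counts of reads per microRNA gene, with no header, 1 table for each library: regardless of strand, on the gene's strand and on the opposite strand. Per the notes deposited with the files, the assembly was mm10, the annotation M4, and each table came from its own alignment. Aligner and counter: not given in the sources used here. Per the labels, RNA under 30 nucleotides was sequenced. Rows naming no gene were left out. They held 18.6% and 17.7% of reads as unmapped (replicates 1 and 2) and 34.0% and 33.1% as mapped to more than 1 place. Counted on the gene's strand, 10.6% and 10.4% lay in no gene, and 0 were ambiguous. Reads on the opposite strand of a gene are not counted at a gene in this way.

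From these, sense-strand counts were divided by their total over genes to give CPM. GENCODE M21 gave symbols for 1894 of 1973 IDs. With 1 group there is no contrast for a count model, so the libraries were compared by exact binomial tests (scipy 1.17.1; at least 10 counts in each; 0.5 added for log2 ratios). TMM (edgeR 4.0.16), DESeq2 1.42.0, other filters, totals, strands, pseudocounts and lengths were alternatives. Steps were tested on simulated data with Poisson counting error only, which tells nothing about variation between livers. Named genes were the members, seed relatives, 5 genes nearest in level to each, neighbours and markers. The members and lists were chosen with earlier results of these data known.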

Additional observations from a re-analysis of the deposited data

Results flagged for a closer look

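Outside the gene-strand counts used above, Mir130a had 43 opposite-strand counts in replicate 1 and 58 in replicate 2, more than the 3 counts that a count of 0 allows. They made up 0.104% of its reads in replicate 1, with a Clopper-Pearson interval of 0.0755 to 0.141, and 0.102% in replicate 2, with 0.0775 to 0.132, where the opposite strand held 9.60% and 10.2% of the counts over all genes. Mir130b and Mir301b had 0 opposite-strand counts in both libraries.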

How the results depend on the processing

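The gaps kept their direction in each alternative, which division by gene length could not change because the higher gene is the shorter one. They moved beyond the spread between the replicates only with counts divided by gene length. The log2 gap of Mir130a was then 2.33 over Mir130b, 8.90 over Mir301b and 2.32 over both together, and that of Mir130b over Mir301b was 6.57. Counts regardless of strand and 0.5 added counts moved each gap by less than that spread. Neither could move them much. Mir130b and Mir301b had 0 opposite-strand counts and Mir130a 0.104% and 0.102%, and 0.5 is small beside 125 reads. Leaving out a replicate cannot move a mean of 2 by more than their SD and tells nothing here. The log2 ratio of Mir130a between the libraries was called in 7 of 9 alternatives and lost its call with TMM (-0.021) and DESeq2 (-0.018) scaling. Alternatives that only set another minimum count leave the log2 ratio as it was and alter just the adjustment. Mir130b gained a call with totals without the highest gene (-0.063), with totals of all reads (-0.12) and with a minimum of 100 counts (-0.042, adjusted p = 0.040 by the exact binomial test). Its adjusted p ranged from 4.9e-10 to 0.79 and that of Mir130a from 1.5e-42 to 0.12. Mir301b was called in none of the 9, with an adjusted p of 0.23 or more. The number of genes differing between the libraries ranged from 121 to 147 around 139, but over unlike numbers of genes tested. The 121 were called with no minimum, over all 1973 genes, and the 139 over 332. With at least 1 count in each library, 141 of 542 genes were called. Among the 65 neighbouring pairs within 1 kb, the gap of Mir130b over Mir301b had rank 9, and 86.2% had a smaller one. With at least 100 counts, 94.3% of 70 pairs had a smaller one. That minimum removes pairs whose lower gene has few counts, which can take out wide gaps. Mir301b itself passed it with 125 and 188 reads, so the higher position is no independent result. Levels moved with each choice of total. Relative to all reads of a library, Mir130a had 6738 CPM (17808 relative to gene counts), Mir130b 1714 (4530) and Mir301b 21.4 (56.6). No paired analysis was possible because there is only 1 group. Depth limits Mir301b most, by its 125 and 188 reads, and Mir130b too, which missed the threshold at nearly the same log2 ratio as the better-covered Mir130a.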

Other observations

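The 3 hairpins differed in predicted folding, computed with RNAfold (ViennaRNA 2.7.2) on the RefSeq sequences. The minimum free energy was -22.1 kcal/mol for Mir130a, -30.1 for Mir130b and -39.1 for Mir301b. Per base these were -0.345, -0.367 and -0.403, where the median over 288 hairpins of tested genes was -0.436. The most abundant member thus had the least stable annotated hairpin of the 3, both in all and per base. Mir301, which lay between Mir130b and Mir301b in level, had -0.430 per base, more stable than any of the 3. Its minimum free energy in all was -37.0 kcal/mol, between those of Mir130b and Mir301b. The annotated hairpins end at different distances from the arms, which moves these energies, and 3 genes allow no test of a relation with level.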
